A study of Homo sapiens with 14 samples.

Results

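When MOLM14 leukaemia cells were given gilteritinib for 48 hours, 119 genes stood at least 2-fold higher with added FGF2 and with added FLT3 ligand (FL) than with the drug alone. Another 73 genes stood at least 2-fold lower with each ligand. MYC stood highest in level among the higher genes chosen for description, and among lower genes averaging at least 10 CPM the heme oxygenase gene HMOX1 had the largest value of the smaller of its 2 log2 differences. The comparison used 3 of the 14 libraries of the study, and its members were chosen from 13370 genes with a mean of at least 1 CPM (a gene's share of the counts of a library, scaled between libraries) over those 3 libraries. A gene was a member when log2 of CPM plus 0.5 differed from gilteritinib alone by 1 or more in the same direction in the FGF2 and in the FL library. Each of the 3 states is 1 library, so no difference between them was tested, and values that chose the members are given as a description.

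MOLM14 is a human acute myeloid leukaemia line that carries an internal tandem duplication of FLT3, and gilteritinib inhibits the FLT3 and AXL kinases. The 3 acute cultures were parental MOLM14 cells given 100 nM gilteritinib for 48 hours, without a ligand, with 10 ng/mL FGF2 or with 10 ng/mL FL. The other libraries were 3 of parental cells with no treatment, and 4 each of early resistant cells grown with FGF2 (FGF2 early) or with FL (FL early) at 10 ng/mL, each early culture also given 100 nM gilteritinib for 48 hours. All of these groups come from 1 cell line, the early libraries are named by flask, and nothing states that parental libraries or flasks were independent cultures, so p-values below measure only the spread between these samples. No library of parental cells with a ligand and without the drug was analysed here.

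FGF2 binds FGF receptors and FL binds FLT3, and both receptor families are tyrosine kinases that feed the RAS-MAPK and PI3K pathways. FLT3 with the tandem duplication also activates STAT5, whose targets include PIM1, CISH and the SOCS genes. RAS-MAPK signalling induces its own feedback inhibitors (the DUSP phosphatases and the Sprouty and SPRED proteins), ETS factors such as ETV5, the AP-1 subunits of the FOS and JUN families, and cyclin D1. MYC is a growth regulator downstream of these pathways that binds E-box sequences at genes for ribosome assembly and nucleotide synthesis.

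Total estimated counts were 25723575 to 33075041 per library. Myeloid markers were present, with FLT3, CD33 and SPI1 at 651, 65.4 and 173 CPM in the drug-alone library, while CD14 averaged under 1 CPM. None of the markers of T cells, B cells, fibroblasts or epithelium reached a mean of 1 CPM, and EPOR alone of the erythroid markers did. The ribosomal protein share of counts was 10.3% on drug alone, 12.6% with FGF2 and 11.7% with FL, above the 8.05% to 8.24% of the parental libraries. CPM are shares of a library, and in these bulk samples fewer cells of a type and less RNA per cell cannot be told apart.

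With FGF2, 209 genes (1.56%) were at least 2-fold higher and 198 (1.48%) at least 2-fold lower than with gilteritinib alone. With FL, 237 (1.77%) were higher and 149 (1.11%) lower. Higher genes were thus 51.4% of those past 2-fold with FGF2 and 61.4% with FL, shares that became 29.7% and 43.8% under scaling by total counts, which gave 79 genes higher and 110 lower with both. Both comparisons use the same drug-alone library, so a deviation of that single library would move a gene the same way in both and cannot be told apart from an effect of the ligands. The 119 genes higher with both ligands are 0.89% of those compared, and the 73 lower with both are 0.546%. Of all genes, the median log2 difference was 0.05 with FGF2 and 0.04 with FL. The drug-alone library was the lowest of all 14 libraries for 83 of the 119 higher genes and the highest of all 14 for 53 of the 73 lower genes. Over all 13370 genes compared it was the lowest in 3222 and the highest in 2467, and the choice of members by a low or high drug-alone value favours such positions. For scale, the 3 parental libraries, which share a label, spanned 2-fold or more in 1.67% of the same genes, the FGF2 early libraries in 3.32% and the FL early libraries in 11.4%.

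The ligand libraries lay within 1.5-fold of one another in 108 of the 119 higher genes and 60 of the 73 lower genes, and in 12728 of all 13370 genes compared. Members of the higher set had a median of 6.54 CPM over the 3 libraries and those of the lower set 3.78 CPM, against 24.0 CPM for all genes compared, and 47 and 16 of them averaged at least 10 CPM. Just inside the threshold were FSCN1 (log2 differences of 1.105 and 1.0001), NLE1 (1.35 and 1.0015) and NME3 (1.004 and 1.13). Just outside were RBFA (1.19 and 0.998), RRP12 (1.28 and 0.995) and TRIB3 (0.992 and 1.08). On the lower side FADS1 (−1.26 and −1.01), RABGEF1 (−1.47 and −1.01) and ITGA6 (−1.16 and −1.02) were inside. H1-4 (−1.51 and −0.992), TM6SF1 (−1.30 and −0.995) and ANKRD20A4P (−1.01 and −0.996) were outside.

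The receptors of the ligands were within 2-fold of the drug-alone level. FLT3 (ENSG00000122025), the receptor of FL and the target of the drug, stood at 651 CPM on drug alone, 726 with FGF2 and 735 with FL, and at 387, 382 and 366 CPM in the parental libraries. FGFR1 (ENSG00000077782), a receptor of FGF2, stood at 264 CPM on drug alone, 242 with FGF2 and 240.1 with FL, against 176, 194 and 180.2 CPM in parental cells. FLT3 and FGFR1 were thus higher in all 3 acute libraries than in the parental ones, with or without a ligand. Of 18 growth factor and cytokine receptor genes compared, none was 2-fold higher with both ligands and 1, IL6ST, was lower. Over all genes compared, 0.89% were higher and 0.546% lower with both. The list's median was −0.28 with FGF2 and −0.23 with FL. IL6ST (ENSG00000134352), the gp130 signal transducer of the IL-6 family, stood at 17.7 CPM on drug alone, 8.11 with FGF2 and 4.73 with FL, and at 12.7, 8.21 and 11.7 CPM in parental cells. The ligand-treated libraries lay below every parental library for IL6ST, and the drug-alone library above. Because the ligands were added as protein, their own transcripts do not check the labels: FLT3LG stood at 3.45 CPM on drug alone, 3.78 with FGF2 and 2.59 with FL.

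Genes induced by RAS-MAPK signalling split. Of 24 compared, 5 were at least 2-fold higher with both ligands (CCND1, ETV5, FOSL1, SPRED1 and DUSP4) and 1, EGR1, was lower, with a median of 0.32 with FGF2 and 0.19 with FL. The differences ran from −1.70 to 2.95 with FGF2 and from −1.81 to 3.10 with FL. Of the 24, 13 (54.2%) and 14 (58.3%) lay above 0, near the 55.1% and 55.4% of all genes compared.

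CCND1 (ENSG00000110092), the cyclin D1 gene, had 1 estimated count on drug alone, 107 with FGF2 and 107 with FL, or 0.0343 CPM on drug alone, 3.62 with FGF2 and 4.08 with FL. The ratio to the drug-alone library was 106-fold with FGF2 (19.9 to 4508) and 119-fold with FL (22.4 to 5086), the range in brackets being the exact 95% counting interval, which covers counting error only. Parental libraries held more, 19.5, 15.01 and 21.2 CPM, and the early libraries 17.6, 14.2, 8.44 and 7.402 CPM with FGF2 and 10.004, 34.97, 34.7 and 19.8 CPM with FL. Both ligand libraries therefore lay above the drug-alone library and below all parental and early libraries for CCND1. The other D cyclins differed less: CCND2 stood at 26.01 CPM on drug alone, 37.4 with FGF2 and 33.9 with FL, and CCND3 at 157 CPM on drug alone, 234 with FGF2 and 220.2 with FL. ETV5 (ENSG00000244405), an ETS transcription factor, stood at 2.66 CPM on drug alone, 14.98 with FGF2 and 10.6 with FL, against 23.01, 28.03 and 30.998 CPM in parental cells, 32.4, 33.7, 39.8 and 30.3 CPM in FGF2 early and 24.4, 42.8, 38.2 and 34.5 CPM in FL early. No library was as low as the drug-alone one for ETV5, and those with a ligand stood between it and the rest. FOSL1 (ENSG00000175592), an AP-1 subunit, followed the same order, with 1.97 CPM on drug alone, 5.82 with FGF2 and 6.48 with FL and 17.9, 16.95 and 17.6 CPM in parental cells.

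DUSP4 and SPRED1 are named here after their values were seen. DUSP4, a MAP kinase phosphatase, stood at 6.697 CPM on drug alone, 16.6 with FGF2 and 15.9 with FL, and the parental libraries at 5.95, 6.27 and 5.98 CPM, close to the drug-alone value. Its levels with a ligand were therefore above parental cells, and above the FGF2 early (1.38, 0.563, 0.435 and 1.17 CPM) and FL early libraries (1.14, 0.9496, 2.11 and 0.845 CPM). SPRED1, an inhibitor of RAS activation, stood at 3.696 CPM on drug alone, 14.1 with FGF2 and 9.17 with FL, against 11.9, 15.7 and 9.996 CPM in parental cells. DUSP6 (ENSG00000139318), the phosphatase of ERK, passed 2-fold with FGF2 alone: it stood at 30.2 CPM on drug alone, 82.3 with FGF2 and 55.9 with FL, with 63.3, 66.2 and 70.1 CPM in parental cells. The Sprouty feedback inhibitors SPRY2 and SPRY4 were higher too, by less than 2-fold with FL. SPRY2 stood at 23.1 CPM on drug alone, 41.9 with FGF2 and 31.5 with FL. SPRY4 stood at 0.405 CPM on drug alone, 1.87 with FGF2 and 0.739 with FL. Its FL value rests on 19 estimated counts against 13 on drug alone. The ratio with FL was 1.82-fold, with a 95% counting interval of 0.817 to 3.84 that includes 1.

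EGR1 (ENSG00000120738), an immediate-early transcription factor and part of the same list, went the other way. It stood at 46.2 CPM on drug alone, 13.9 with FGF2 and 12.8 with FL, and at 139, 136 and 156 CPM in the parental libraries, so it was further below parental cells with a ligand than on drug alone. The log2 differences from gilteritinib alone were −1.70 with FGF2 and −1.81 with FL. FGF2 early libraries held 97.2, 92.4, 106 and 111 CPM and FL early libraries 21.3, 24.9, 17.9 and 13.5 CPM, all below the parental libraries. FOS, an AP-1 subunit, was lower with the ligands by less than 2-fold, at 205 CPM on drug alone, 135 with FGF2 and 133 with FL, and its parental libraries held 74.6, 77.4 and 78.2 CPM. The immediate-early genes FOSB, EGR3 and JUNB, picked after their values were seen, were also lower, by less than 2-fold on the log2 scale of CPM plus 0.5. FOSB stood at 6.16 CPM on drug alone, 3.32 with FGF2 and 2.85 with FL. EGR3 stood at 2.33 CPM on drug alone, 1.03 with FGF2 and 1.43 with FL. JUNB stood at 90.3 CPM on drug alone, 58.1 with FGF2 and 72.2 with FL.

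Of 14 STAT5 target genes compared, none was 2-fold higher or lower with either ligand. Few of all genes pass 2-fold (1.56% higher and 1.48% lower with FGF2). A count of 0 in a list of this size is therefore near the share over all genes. The list's median was 0.14 with FGF2 and 0.23 with FL. Scaling by total counts put the list's FGF2 median at −0.02 and that of all genes at −0.12. The list's FGF2 median was thus 0.097 above that of all genes under total counts, and 0.098 above it in the scaling used elsewhere here. PIM1, a survival kinase, stood at 26.8 CPM on drug alone, 24.3 with FGF2 and 22.9 with FL, below the 49.7, 50.1 and 47.7 CPM of parental cells. CISH, a feedback inhibitor of cytokine receptors, stood at 10.4 CPM on drug alone, 10.3 with FGF2 and 12.5 with FL, against 44.7, 41.98 and 48.3 CPM in parental cells. Both genes were thus lower in all 3 acute libraries than in parental cells, whether or not a ligand was present. Of 16 BCL2 family genes, none passed 2-fold with either ligand, again near the share over all genes. BCL2, a survival gene, stood at 49.5 CPM on drug alone, 64.6 with FGF2 and 61.6 with FL. MCL1, also a survival gene, stood at 201 CPM on drug alone, 166 with FGF2 and 171 with FL. BMF, a pro-death gene, stood at 443 CPM on drug alone, 343 with FGF2 and 364 with FL, against 22.4 to 27.5 CPM in parental cells.

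MYC (ENSG00000136997) stood at 87.7 CPM on drug alone, 351 with FGF2 and 272 with FL, and at 589, 582 and 667 CPM in parental cells. For MYC the drug-alone library was the lowest of all 14, and those with a ligand lay between it and all parental and early libraries. Its ratios to the drug-alone library were 4.001-fold with FGF2 (3.84 to 4.17) and 3.103-fold with FL (2.97 to 3.24). FGF2 early libraries held 694, 689.98, 609.9 and 605 CPM and FL early libraries 551, 536, 589 and 564 CPM of MYC. Among 38 MYC targets and ribosome biogenesis genes, 4 were at least 2-fold higher with both ligands (MYC, NME1, NOP16 and SRM) and 1, BOP1, was lower. Most of the others differed by less than 2-fold and in one direction. Of the 38, 37 lay above 0 with FGF2 and 36 with FL, against 55.1% and 55.4% of all genes compared. The medians were 0.74 and 0.54, against 0.05 and 0.04 for all genes. Under total-count scaling 35 and 36 of the 38 lay above 0, with medians of 0.57 and 0.43. The summed level of the list was 2948 CPM on drug alone, 5020.0 CPM with FGF2 and 4355 CPM with FL, still below the 10616 to 11128 CPM of parental cells.

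NME1 (ENSG00000239672), a nucleoside diphosphate kinase, stood at 15.8 CPM on drug alone, 45.9 with FGF2 and 40.7 with FL, against 216, 221 and 213 CPM in parental cells. NOP16 (ENSG00000048162), a nucleolar protein of ribosome assembly, stood at 15.2 CPM on drug alone, 40.7 with FGF2 and 36.04 with FL, and the parental libraries at 109.8, 114 and 112 CPM. SRM, the spermidine synthase gene, stood at 27.3 CPM on drug alone, 61.4 with FGF2 and 62.2 with FL, with 109, 108 and 128 CPM in parental cells. In all 3 genes the ligand libraries lay at least 2-fold above the drug-alone library and below every parental library. BOP1, a ribosome biogenesis factor, stood at 3.05 CPM on drug alone, 0.5603 with FGF2 and 0.588 with FL, and is uncertain, since its libraries spread widely within groups. Parental libraries held 20.1, 21.8 and 3.68 CPM of BOP1, and FL early libraries 1.39, 12.4, 1.31 and 1.75 CPM. NCL and NOP56, abundant members of the list, differed by less: NCL, the nucleolin gene, stood at 403 CPM on drug alone, 695 with FGF2 and 644 with FL. NOP56, a box C/D snoRNP protein, stood at 94.6 CPM on drug alone, 167 with FGF2 and 161 with FL. All 42 ribosomal protein genes compared lay above 0 with each ligand, against 55.1% of all genes with FGF2 and 55.4% with FL. Of the 42, 1 passed 2-fold with FGF2 and none with FL. The medians were 0.46 and 0.27, and under total-count scaling 42 and 40 lay above 0.

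The E-box bound by MYC is CACGTG, the same on both strands. It was looked for in the 250 bases before annotated gene starts, because MYC and some of its target genes were higher together. Start windows on the chromosome that holds MYC were left out of the search. Start windows came from RefSeq on GRCh38.p14. Those searched were 79 windows of 60 of the 119 higher genes and 62 windows of 45 of the 73 lower genes. No window of MYC itself was therefore among them, and the shares below do not cover MYC or the other members without a window. The motif was in 13 of the 79 windows (16.5%) of the higher genes, in 4 of the 62 (6.45%) of the lower genes, and in 2228 of all 35116 windows searched (6.34%). Those 35116 windows belong to 27305 genes and were not limited to the genes compared here. A share over the genes compared was not computed, so the shares of members have no matched reference. Windows of higher genes were also richer in G and C, at 67.2% of bases against 61.0% and 57.2%, and the part of base composition in this share was not tested. The windows of 3 higher genes that hold it are shown, 5′ to 3′ on the strand of the gene, with the E-box in capitals; B4GALT2 is a galactosyltransferase, IPO4 an importin and SRM spermidine synthase.
B4GALT2, chr1:43979687-43979936, plus strand: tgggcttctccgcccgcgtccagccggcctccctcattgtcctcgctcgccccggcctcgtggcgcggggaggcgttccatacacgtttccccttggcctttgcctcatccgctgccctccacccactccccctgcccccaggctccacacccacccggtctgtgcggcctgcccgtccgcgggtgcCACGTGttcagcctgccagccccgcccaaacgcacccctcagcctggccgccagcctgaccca
IPO4, chr14:24188817-24189066, minus strand: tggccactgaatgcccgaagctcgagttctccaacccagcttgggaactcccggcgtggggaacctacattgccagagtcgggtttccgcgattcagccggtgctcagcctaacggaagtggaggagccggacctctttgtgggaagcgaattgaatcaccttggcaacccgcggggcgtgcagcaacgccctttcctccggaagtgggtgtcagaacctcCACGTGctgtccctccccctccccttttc
SRM, chr1:11060019-11060268, minus strand: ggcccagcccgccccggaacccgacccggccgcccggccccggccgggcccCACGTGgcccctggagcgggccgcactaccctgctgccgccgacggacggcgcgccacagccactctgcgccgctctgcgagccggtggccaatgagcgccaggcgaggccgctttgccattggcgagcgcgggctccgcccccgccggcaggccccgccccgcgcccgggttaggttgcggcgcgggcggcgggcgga
The motif starts 63 bases before the start in B4GALT2, 29 bases before it in IPO4 and 199 bases before it in SRM. B4GALT2 stood at 4.08 CPM on drug alone, 17.9 with FGF2 and 12.2 with FL. IPO4 stood at 16.6 CPM on drug alone, 58.7 with FGF2 and 45.8 with FL.

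Other motifs, searched on both strands of the same windows, were found in the following shares of windows of higher genes, of lower genes and of all windows searched. The STAT motif TTCNNNGAA was in 2.53%, 4.84% and 6.57%. An ETS core, CCGGAA, was in 17.7%, 21% and 14.5%, and the EGR motif GCGNGGGCG in 13.9%, 12.9% and 8.41%. For AP-1, TGANTCA, the shares were 3.8%, 6.45% and 6.57%, and for the antioxidant response element, TGACNNNGC, which can overlap AP-1, 13.9%, 9.68% and 10.9%. A match describes the letters and does not show that a factor binds there.

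The other higher genes described by rule averaged at least 10 CPM and were ranked by the smaller of their 2 log2 differences. MARCKSL1 (ENSG00000175130), an actin-regulating relative of MARCKS, stood at 10.7 CPM on drug alone, 39.7 with FGF2 and 33.7 with FL, and at 104, 103 and 109 CPM in parental cells. CTTN (ENSG00000085733), the cortactin gene of branched actin, stood at 13.96 CPM on drug alone, 48.3 with FGF2 and 40.8 with FL, and at 36.95, 33.6 and 38.8 CPM in parental cells, so the ligand libraries were above every parental library. SLC17A9 (ENSG00000101194), the vesicular nucleotide transporter, stood at 24.4 CPM on drug alone, 89.1 with FGF2 and 68.9 with FL, below the 108, 122 and 134 CPM of parental cells. B4GALT2 and IPO4 were likewise below their parental libraries, which held 63.5 to 72.7 CPM and 148 to 174 CPM. MIF (ENSG00000240972), macrophage migration inhibitory factor, stood at 47.7 CPM on drug alone, 126 with FGF2 and 132 with FL, with 145, 157 and 221 CPM in parental cells.

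TXNDC5 (ENSG00000239264), a disulfide isomerase of the endoplasmic reticulum, stood at 39.7 CPM on drug alone, 104 with FGF2 and 98.96 with FL, and at 274, 299.6 and 294 CPM in parental cells. ANKLE1, an endonuclease gene, stood at 29.4 CPM on drug alone, 72.4 with FGF2 and 82.5 with FL, and at 118 to 125 CPM in parental cells. VAT1L stood at 72.6 CPM on drug alone, 175 with FGF2 and 177 with FL, and at 289.9 to 305 CPM in parental cells. In these 3 genes the order was again drug alone, ligand, parental, from low to high, with no overlap between these states. EMID1 (ENSG00000186998), an EMI-domain protein of the extracellular matrix, differed from that order. It stood at 13.9 CPM on drug alone, 34.3 with FGF2 and 36.5 with FL, while parental libraries held 14.8, 15.5 and 20.2 CPM, FGF2 early libraries 39.5, 40.01, 39.96 and 40.6 CPM and FL early libraries 28.3, 35.8, 37.2 and 44.3 CPM. EMID1 in the ligand libraries was thus above parental cells, below FGF2 early and within the range of FL early.

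**Figure D1:**
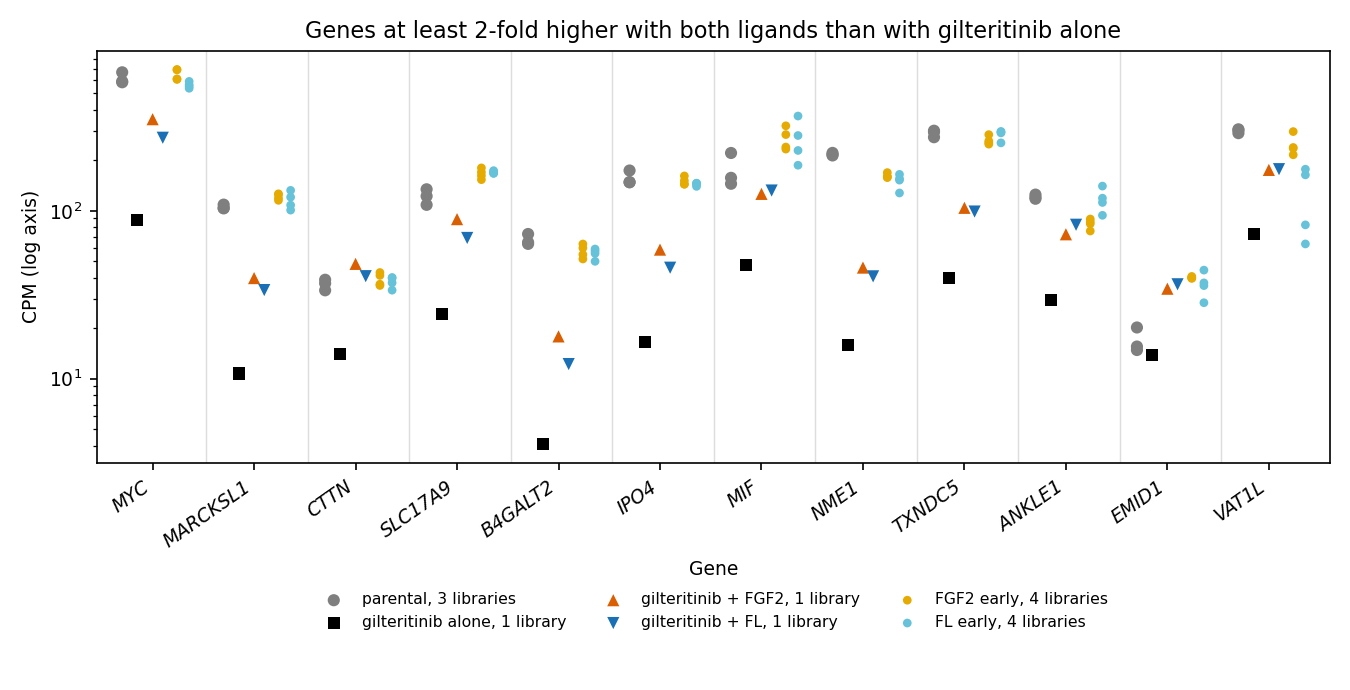
CPM on a log axis of the 12 genes described above by rule as higher with both ligands, with 1 point per library and a symbol per group. The drug-alone square is the lowest point in each gene but VAT1L, where FL early replicate 2 is lower at 63.5 CPM, and the ligand triangles lie below the parental circles in all but CTTN and EMID1, where they lie above; for MYC the square is at 87.7 CPM and the triangles at 351 and 272 CPM.

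Further higher genes were picked after their values were seen. RRS1, a ribosome assembly factor, stood at 18.3 CPM on drug alone, 43.7 with FGF2 and 44.7 with FL. EXOSC5, a subunit of the RNA exosome, stood at 21.7 CPM on drug alone, 55.2 with FGF2 and 47.5 with FL. METTL1, a tRNA methyltransferase, stood at 12.2 CPM on drug alone, 30.4 with FGF2 and 26.3 with FL. TERT, the catalytic subunit of telomerase, stood at 2.81 CPM on drug alone, 14.9 with FGF2 and 11.7 with FL, with 40.7 to 48.9 CPM in parental cells. TRIP13, an ATPase of mitotic checkpoint control, stood at 1.56 CPM on drug alone, 6.504 with FGF2 and 5.87 with FL, far below the 80.4 to 90.6 CPM of parental cells. SLC19A1, the reduced folate carrier, stood at 22.8 CPM on drug alone, 50.7 with FGF2 and 47.5 with FL. TWNK, the mitochondrial DNA helicase, stood at 24.8 CPM on drug alone, 69.8 with FGF2 and 51.6 with FL. FLNC, an actin-binding filamin, stood at 11.3 CPM on drug alone, 33.3 with FGF2 and 27.5 with FL, against 52.5 to 65.4 CPM in parental cells. FSCN1, the actin-bundling protein fascin, stood at 21.2 CPM on drug alone, 46.2 with FGF2 and 42.97 with FL, against 135 to 162 CPM in parental cells. MATK, a kinase that acts on SRC kinases in blood cells, stood at 54.4 CPM on drug alone, 115 with FGF2 and 111 with FL, and in parental cells at 97.8, 101 and 115 CPM. MATK with a ligand was near its parental level, whereas TERT, TRIP13, FLNC and FSCN1 were below theirs.

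None of 36 G1-S and replication genes, and none of 41 G2-M and mitosis genes, was 2-fold higher or lower with both ligands, which is near the 0.89% and 0.546% over all genes. The medians were 0.19 and −0.06 for the first list and −0.00 and −0.11 for the second. Summed over the G1-S list, levels were 837 CPM on drug alone, 972 with FGF2 and 872 with FL, where parental cells held 5810.4 to 5909.7 CPM. For G2-M the sums were 531, 542 and 462 CPM, where parental cells held 5044 to 5348 CPM. MKI67, the Ki-67 proliferation marker, stood at 82.98 CPM on drug alone, 65.7 with FGF2 and 53.96 with FL, and at 738, 734 and 723 CPM in parental cells. CDC6, a replication licensing factor, stood at 2.15 CPM on drug alone, 1.67 with FGF2 and 1.42 with FL, against 82.7, 91.3 and 80.5 CPM in parental cells. Both genes were far below parental cells in every acute library, with or without a ligand. CDKN1A, the p21 inhibitor of cyclin-dependent kinases, stood at 516 CPM on drug alone, 580.02 with FGF2 and 631 with FL, and at 200.1, 201 and 224 CPM in parental cells.

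**Figure D2:**
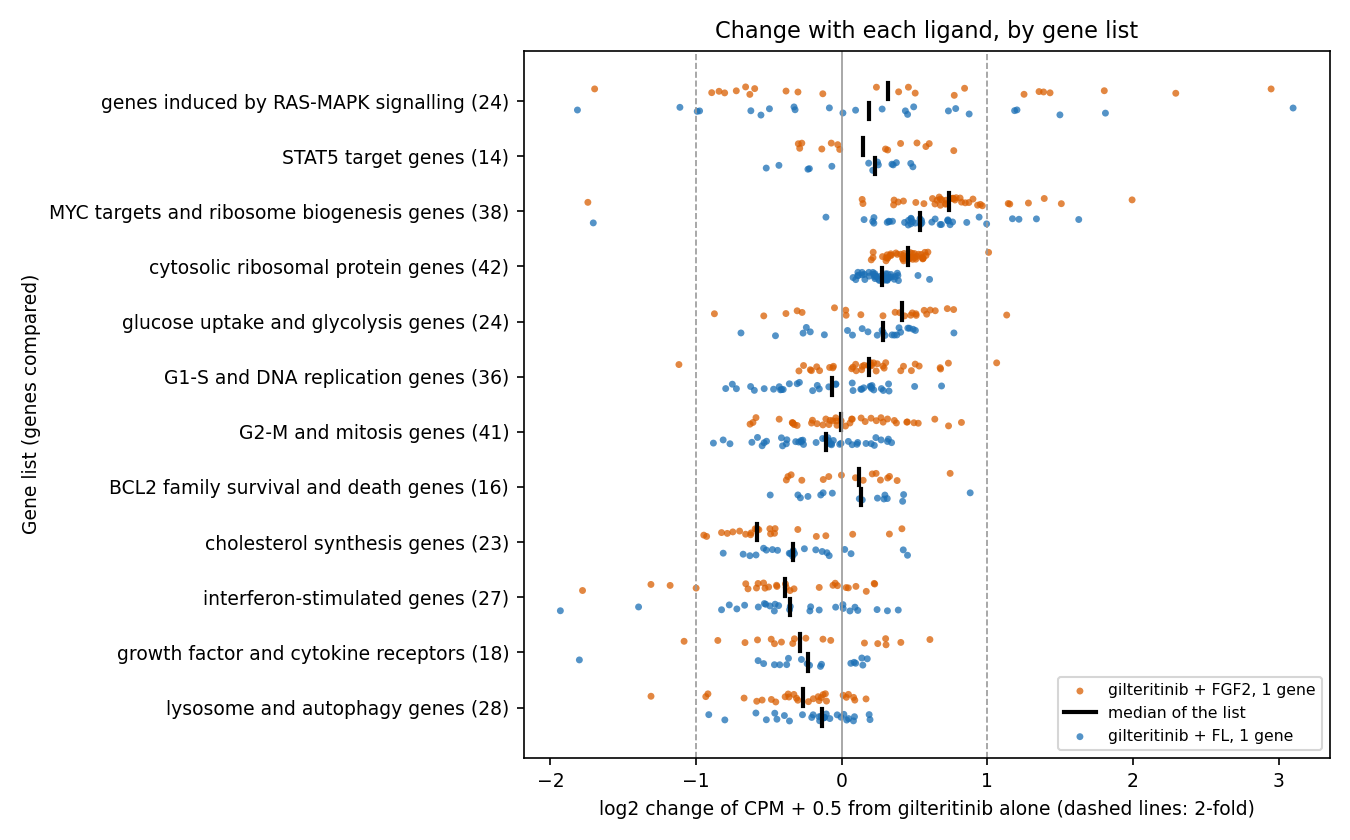
The log2 difference of CPM + 0.5 from gilteritinib alone for each gene of 12 lists, orange with FGF2 and blue with FL, with the list's median as a black bar and dashed lines at 2-fold. MYC and ribosome biogenesis genes have the highest medians of these lists (0.74 and 0.54), cholesterol synthesis genes the lowest with FGF2 (−0.58) and interferon-stimulated genes the lowest with FL (−0.36).

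Among the lower genes, HMOX1 (ENSG00000100292), which breaks down heme and responds to oxidative stress, stood at 61.9 CPM on drug alone, 11.9 with FGF2 and 18.1 with FL. The parental libraries held 1.802, 1.14 and 1.95 CPM, so HMOX1 with a ligand was below the drug-alone library and above all parental and early libraries (FGF2 early 2.49, 1.78, 1.54 and 2.07 CPM, FL early 0.498, 1.57, 1.704 and 0.951 CPM). Its ratios to the drug-alone library were 0.193-fold with FGF2 (0.172 to 0.216) and 0.293-fold with FL (0.264 to 0.324). LINC02909 (ENSG00000226397), a long noncoding RNA, stood at 22.8 CPM on drug alone, 4.67 with FGF2 and 7.28 with FL, with 0.231 to 0.552 CPM in parental cells. ZNF277 (ENSG00000198839), a zinc finger protein gene, stood at 172 CPM on drug alone, 53.3 with FGF2 and 66.04 with FL, and at 22.7, 28.02 and 26.2 CPM in parental cells. SORL1 (ENSG00000137642), a sorting receptor of endosomes, stood at 345 CPM on drug alone, 162 with FGF2 and 161 with FL, and at 39.2, 39.4 and 39.3 CPM in parental cells. For these genes the order was parental, ligand, drug alone, from low to high, with no overlap.

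WDR74, a ribosome biogenesis factor, stood at 233 CPM on drug alone, 83.4 with FGF2 and 104 with FL, and at 60.7, 56.2 and 60.2 CPM in parental cells. SKIL, a repressor of SMAD signalling, stood at 59.3 CPM on drug alone, 25.04 with FGF2 and 26.4 with FL, with 14.6, 17.4 and 14.8 CPM in parental cells. SOX13, a SOX transcription factor, stood at 24.9 CPM on drug alone, 9.26 with FGF2 and 11.3 with FL, with 0.212 to 0.306 CPM in parental cells. COL24A1, a fibrillar collagen, stood at 23.3 CPM on drug alone, 8.97 with FGF2 and 8.88 with FL, with 1.19 to 1.48 CPM in parental cells. TMOD2, which caps actin filaments, stood at 20.6 CPM on drug alone, 6.92 with FGF2 and 6.39 with FL, with 2.75, 1.67 and 1.605 CPM in parental cells. In these 5 genes too, the ligand libraries lay between the drug-alone library and the parental ones. SOCS4 (ENSG00000180008), of the suppressors of cytokine signalling, stood at 37.4 CPM on drug alone, 15.1 with FGF2 and 15.98 with FL, and its parental libraries at 28.5, 23.8 and 21.7 CPM, so it was lower with a ligand than in parental cells. RIMBP3C stood at 119.9 CPM on drug alone, 30.03 with FGF2 and 47.7 with FL, but it has near-identical copies, so reads may be assigned to the wrong one.

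**Figure D3:**
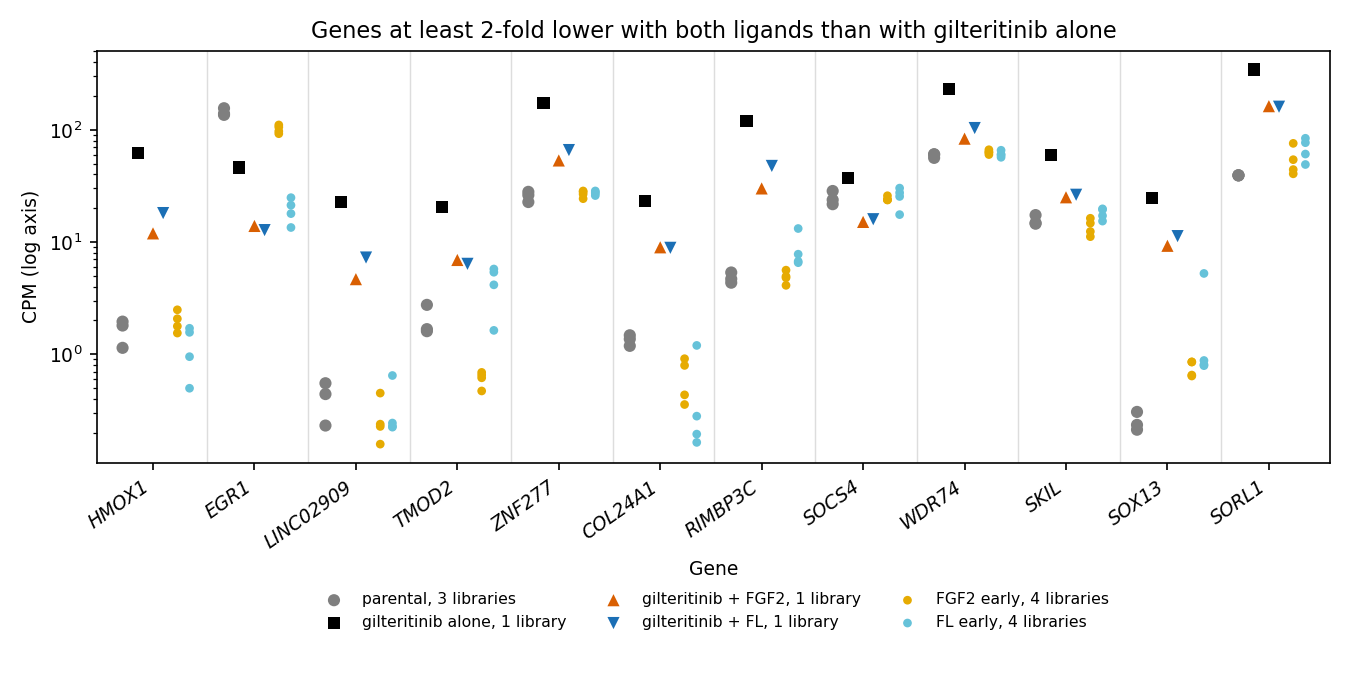
CPM on a log axis of the 12 genes described by rule as lower with both ligands, with 1 point per library and a symbol per group. The ligand triangles lie below the drug-alone square in each gene and above the parental circles in all but EGR1 and SOCS4; HMOX1 goes from 61.9 CPM with the drug alone to 11.9 and 18.1 CPM with a ligand.

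Members of several lists were among the lower genes, which are 0.546% of all genes compared. Of 16 fatty acid synthesis genes, FADS1 and FADS2, the desaturases of polyunsaturated fatty acids, were lower with both ligands and none was higher with both. FADS2 stood at 8.65 CPM on drug alone, 3.23 with FGF2 and 2.78 with FL, with 63.9 to 67.6 CPM in parental cells. FADS1 stood at 9.48 CPM on drug alone, 3.67 with FGF2 and 4.47 with FL, with 33.3 to 36.3 CPM in parental cells. Both were below parental cells on drug alone and lower still with a ligand. Of 34 ATF4 target genes, SLC7A11, the cystine transporter subunit, was lower with both, at 7.51 CPM on drug alone, 1.86 with FGF2 and 2.63 with FL, against 26.7, 32.1 and 22.2 CPM in parental cells. Of 27 interferon-stimulated genes, ISG20 and IFITM1 were lower with both ligands and none was higher with both, with medians of −0.39 and −0.36. ISG20, an exonuclease, stood at 10.03 CPM on drug alone, 2.57 with FGF2 and 2.26 with FL. IFITM1, a restriction factor of virus entry, stood at 8.04 CPM on drug alone, 2.95 with FGF2 and 2.75 with FL. CXCL8, the interleukin-8 gene, was the member of 18 inflammatory genes that was lower with both, at 7.497 CPM on drug alone, 2.12 with FGF2 and 1.73 with FL. ITGA6, an integrin subunit, was the member of 19 adhesion genes, at 47.7 CPM on drug alone, 20.99 with FGF2 and 23.3 with FL, with 15.7, 16.6 and 18.1 CPM in parental cells.

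None of 23 cholesterol synthesis genes was 2-fold lower or higher with either ligand, a count near the share over all genes. Of these 23, 3 lay above 0 with FGF2 and 4 with FL, with medians of −0.58 and −0.33. Over all genes compared, 55.1% and 55.4% lay above 0. HMGCS1, an early enzyme of that pathway picked after its values were seen, stood at 84.004 CPM on drug alone, 51.5 with FGF2 and 57.8 with FL. Of 28 lysosome and autophagy genes, none was past 2-fold with both, again near the share over all genes, and the medians were −0.26 and −0.13. Further lower genes were picked after their values were seen. IL10RA, a subunit of the interleukin-10 receptor, stood at 78.02 CPM on drug alone, 36.3 with FGF2 and 36.9 with FL. CHIT1, a chitinase of macrophages, stood at 9.21 CPM on drug alone, 3.74 with FGF2 and 3.84 with FL. TP53INP2, a gene of autophagy, stood at 21.9 CPM on drug alone, 8.01 with FGF2 and 10.1 with FL. IL10RA, CHIT1 and TP53INP2 in the ligand libraries were above their parental ranges of 10.3 to 18.4 CPM, 0.475 to 0.766 CPM and 1.62 to 1.78 CPM. The replication-dependent histone genes H4C3 and H1-5 were lower as well, H4C3 at 9.75 CPM on drug alone, 2.26 with FGF2 and 1.95 with FL. H1-5 stood at 3.39 CPM on drug alone, 0.471 with FGF2 and 0.643 with FL, and since histone genes have close copies these values are uncertain. Both were picked after their values were seen. In a list of 11 polyadenylated histone transcripts compared, none was 2-fold lower or higher with both ligands, and the medians were −0.04 and 0.08. That list summed to 339 CPM on drug alone, 355 with FGF2 and 373 with FL.

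Set against the range of the 3 parental libraries, the drug-alone library lay on 1 side for most members of a set. The drug-alone library lay below that range in 98 of the 119 higher genes, within it in 17 and above it in 4, whereas over all genes compared it lay below in 45.6%, within in 9.81% and above in 44.6%. Both ligand libraries lay below the range in 64 of the 119, within it in 9 and above it in 36, with 39.6%, 5.09% and 41.6% over all genes. Of the 73 lower genes, the drug-alone library lay above the parental range in 59, within it in 5 and below it in 9. Both ligand libraries lay above it in 34 of the 73, within it in 9 and below it in 19. So 64 of the 119 higher genes were below parental cells with the drug alone and with each ligand, and 34 of the 73 lower genes above them in all 3 acute libraries. Over all 13370 genes compared, 4946 were below parental cells in all 3 acute libraries and 4991 above. Since members were chosen for a high or low drug-alone value relative to the ligand libraries, these counts are a description.

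**Figure D4:**
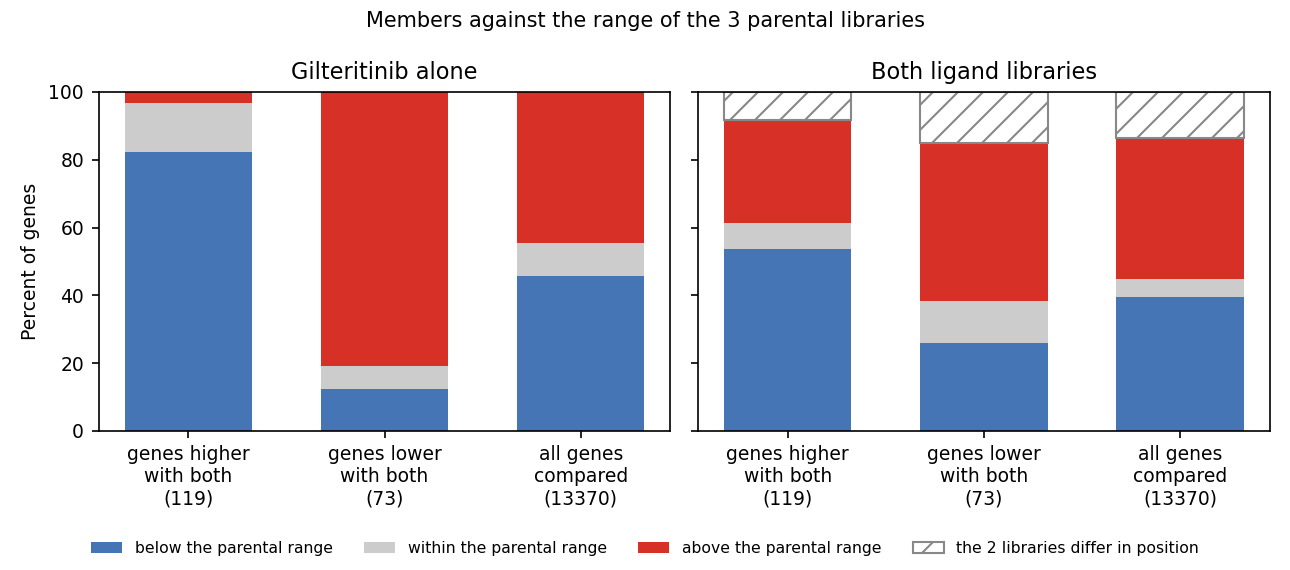
Percent of genes below, within or above the range of the 3 parental libraries, for the drug-alone library (left) and for both ligand libraries together (right), in 119 genes higher with both ligands, 73 lower and all 13370 compared. Blue (below) fills most of the first bar on the left, 98 of 119 genes, and red (above) most of the second, 59 of 73; on the right, 64 of the 119 are still below and 34 of the 73 still above.

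The early resistant lines, grown with the same ligands, gave a replicated measure in libraries that did not choose the members. Their reference was untreated parental cells and not gilteritinib alone, so a rise or fall there is a different comparison from the acute one. Of 15249 genes tested with edgeR's quasi-likelihood test and Benjamini-Hochberg adjustment at 0.05, 2356 (15.5%) rose and 2938 (19.3%) fell in FGF2 early against parental cells, and 1880 (12.3%) rose and 1882 (12.3%) fell in FL early. Both comparisons share the parental libraries. Of the 13277 genes tested that were also compared in the acute libraries, 16.8% rose and 20.3% fell in FGF2 early, and 13.0% rose and 13.5% fell in FL early. Of 118 higher genes tested, 13 (11%) rose and 30 (25.4%) fell in FGF2 early, and 10 (8.47%) rose and 24 (20.3%) fell in FL early. Of 62 lower genes tested, 4 (6.45%) rose and 15 (24.2%) fell in FGF2 early, and 9 (14.5%) rose and 7 (11.3%) fell in FL early. With the acute libraries added to the fit as a further group, 5 of the higher genes rose and 14 fell in FGF2 early, and 1 rose and 6 fell in FL early, while over all genes 2095 rose and 2698 fell, and 1722 rose and 1537 fell. Of the lower genes, 5 rose in FL early in that fit. It treats the 3 acute libraries as 1 group, although members were chosen for differences among them. That choice raises the spread of members in that fit, so their fewer calls there are partly built in. Counts in FL early depended on the parental libraries: without parental replicate 2, 3 higher genes rose and 13 fell, and without replicate 1, 4 rose and 15 fell, while over all genes tested 945 rose and 967 fell without replicate 2, and 991 and 1011 without replicate 1. Over all genes tested, 1544 rose in FGF2 early without parental replicate 2. In the same way, 8 of the higher genes rose in FGF2 early without parental replicate 1. The 9 lower genes that rose in FL early became 5, 1 and 3 without parental replicates 1, 2 and 3, and 5 without FL early replicate 1 or 2. Counts over all genes are not given here for FGF2 early without parental replicate 1. Nor are they for FL early without parental replicate 3 or an FL early replicate, so the member counts of those fits have no reference.

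MYC itself did not pass the test in either early line, with log2 fold changes of 0.09 ± 0.07 (SE, adjusted p = 0.352) in FGF2 early and −0.12 ± 0.07 (SE, adjusted p = 0.229) in FL early by edgeR. EMID1 rose in both, with log2 fold changes of 1.25 ± 0.14 (SE, adjusted p = 0.000149) and 1.12 ± 0.14 (SE, adjusted p = 0.000439). SLC17A9 rose in both, with log2 fold changes of 0.46 ± 0.07 (SE, adjusted p = 0.000912) and 0.49 ± 0.07 (SE, adjusted p = 0.00113). NME1 fell in both, with log2 fold changes of −0.42 ± 0.07 (SE, adjusted p = 0.00141) and −0.53 ± 0.07 (SE, adjusted p = 0.00081). NOP16 fell in both, with log2 fold changes of −0.39 ± 0.06 (SE, adjusted p = 0.000743) and −0.37 ± 0.06 (SE, adjusted p = 0.0016). All 8 early libraries lay above the 3 parental libraries for EMID1 and SLC17A9, and below them for NME1 and NOP16. For NME1 and NOP16 they still lay above every acute library, the lowest early values being 128 and 77.5 CPM, both in FL early. ANKLE1 fell in FGF2 early with a log2 fold change of −0.53 ± 0.11 (SE, adjusted p = 0.00341), and VAT1L in FL early with a log2 fold change of −1.29 ± 0.29 (SE, adjusted p = 0.0101). MIF rose in FGF2 early with a log2 fold change of 0.63 ± 0.22 (SE, adjusted p = 0.0455), a call lost when any of 7 libraries was left out, and over all fits without 1 library the adjusted p ran from 0.0178 to 0.152. In FL early B4GALT2 fell with a log2 fold change of −0.26 ± 0.09 (SE, adjusted p = 0.0469), and that call was lost without any of 8 libraries, while over all fits without 1 library the adjusted p ran from 0.0385 to 0.17.

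Of the lower genes, EGR1 fell in FL early with a log2 fold change of −2.88 ± 0.16 (SE, adjusted p = 3.36e-06), and in FGF2 early with a log2 fold change of −0.50 ± 0.15 (SE, adjusted p = 0.0254), the latter call lost without any of 5 libraries (over all fits without 1 library, the adjusted p ran from 0.0028 to 0.08). ITGA6 fell in both lines, with log2 fold changes of −3.84 ± 0.50 (SE, adjusted p = 0.000323) and −2.18 ± 0.46 (SE, adjusted p = 0.00675). Its early libraries held 0.5702, 1.61, 1.34 and 1.19 CPM with FGF2 and 6.01, 4.71, 3.19 and 0.936 CPM with FL, all below the parental ones. FADS2, FADS1 and IFITM1 fell in FGF2 early, with log2 fold changes of −4.66 ± 0.86 (SE, adjusted p = 0.00219), −2.11 ± 0.52 (SE, adjusted p = 0.00983) and −3.93 ± 0.75 (SE, adjusted p = 0.00258). In FL early the same 3 genes gave −0.14 ± 0.72 (SE, adjusted p = 0.908), 0.15 ± 0.50 (SE, adjusted p = 0.862) and −0.60 ± 0.65 (SE, adjusted p = 0.536). TMOD2 fell in FGF2 early with a log2 fold change of −1.71 ± 0.39 (SE, adjusted p = 0.00617), while FL early gave 1.08 ± 0.38 (SE, adjusted p = 0.057). HMOX1 did not pass in either line, with 0.27 ± 0.37 (SE, adjusted p = 0.597) and −0.46 ± 0.38 (SE, adjusted p = 0.4). SOX13, RIMBP3C and SORL1 rose in FL early, with log2 fold changes of 2.91 ± 0.73 (SE, adjusted p = 0.0148), 0.84 ± 0.24 (SE, adjusted p = 0.0246) and 0.79 ± 0.22 (SE, adjusted p = 0.0231). Each of these calls was lost without some parental library (parental replicate 2 for SOX13, any of the 3 for the others), and SORL1 also without FL early replicate 1 or 2. Of the RAS-MAPK genes, FOSL1 fell in FGF2 early with a log2 fold change of −0.32 ± 0.09 (SE, adjusted p = 0.0186) and in FL early with one of −0.38 ± 0.09 (SE, adjusted p = 0.0123). Without parental replicate 1 both calls were lost, and without replicate 2 the first was. DUSP4, higher with acute ligand, fell in both early lines, with log2 fold changes of −2.74 ± 0.39 (SE, adjusted p = 0.000456) and −2.25 ± 0.38 (SE, adjusted p = 0.00214).

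**Figure D5:**
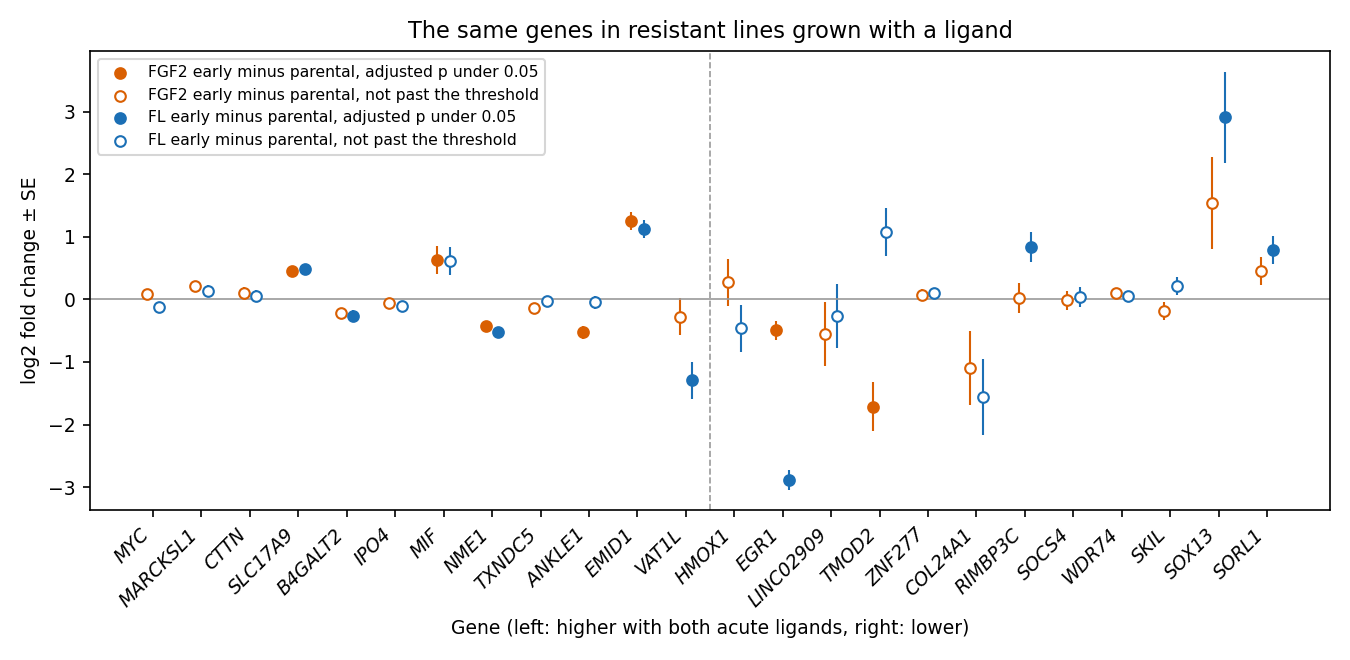
Log2 fold change ± SE against 3 parental libraries in FGF2 early (orange, 4 libraries) and FL early (blue, 4 libraries) for the 24 genes described by rule, filled where edgeR's adjusted p was under 0.05. EMID1 and SLC17A9 lie above 0 and NME1 below 0 in both lines, and EGR1 is lowest in FL early at −2.88.

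Transcripts of members were richer in G and C than those of all genes compared. The median G and C content of transcripts was 57.0% in the higher genes, 52.5% in the lower genes and 48.4% in all genes compared, and the median transcript length 2772, 4525 and 3592 bases. Length and composition were known for 88.2%, 83.6% and 90.5% of the 3 sets. Over all genes with known composition, the median log2 difference went, from the lowest to the highest of 5 equal groups by G and C content, from −0.09 to 0.15 with FGF2 and from −0.10 to 0.21 with FL. From the shortest to the longest of 5 groups by transcript length it went from 0.16 to −0.09 with FGF2 and from 0.14 to −0.09 with FL. The part of composition and length in the members' differences was not tested. Of the higher genes 97 had a gene symbol and 96 were protein-coding, of the lower genes 59 and 55, and 9 and 5 were annotated as pseudogenes. Identical values appeared in 2 identifiers of the higher and 3 of the lower set (within 0.0001 CPM), so the sets hold slightly fewer separate genes.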

How the data were processed

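RNA was extracted with a Qiagen miRNA kit and made into stranded poly(A) libraries (TruSeq) for a NovaSeq instrument, per the labels' protocols. The authors deposited estimated counts per Ensembl gene, made with kallisto and given with build GRCh37 per the submitters' processing notes; the version and the summing of transcripts to genes are not given in the sources used here. Of 39293 identifiers, 73.4% matched a symbol (RefSeq gene names and GENCODE 29, used for names, types, length and composition), and the others held 4.81% to 5.73% of a library's counts.

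CPM were computed with TMM scaling over the 14 libraries, and acute libraries compared on log2 of CPM plus 0.5 among genes with a mean of at least 1 CPM, where the pseudocount understates changes of low genes. Ratios have exact 95% (Clopper-Pearson) counting intervals. Counts were rounded for edgeR 4.0.16 (R 4.3.3; filterByExpr with minimum count 10 and total 15; robust quasi-likelihood fit), on the 11 libraries of parental and early cells. Scripts were tested on simulated data. DESeq2 1.42.0, other scalings, filters and pseudocounts and leaving out each library were alternatives. Figures used matplotlib 3.10.9 in Python 3.11.15.

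The genes named are the 12 per direction with the largest value of the smaller of the 2 absolute log2 differences (mean of at least 10 CPM and a symbol), up to 4 such members of each list without that limit, and a panel of 28 genes; others are said to be picked after their values were seen. Of 795 genes in 31 lists and marker sets, 790 were found. The members and lists were chosen with earlier results of these data known.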

Additional observations from a re-analysis of the deposited data

Results flagged for a closer look

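In groups of 4 libraries a single library can stand apart from the other 3 by more than Dixon's 95% critical value; 48 groups of the 24 genes named by rule were checked, and chance alone marks about 1 in 20 groups. The library FL early replicate 1 stood apart in 3 genes: TXNDC5 at 253.7 CPM (the others 290.9 to 297 CPM), COL24A1 at 1.198 CPM (0.164 to 0.281 CPM) and SOX13 at 5.25 CPM (0.791 to 0.880 CPM). LINC02909 was at 0.646 CPM in FL early replicate 3, with 0.224 to 0.244 CPM in the others, and SOCS4 at 25.9 CPM in FGF2 early replicate 4, with 23.7 to 23.9 CPM in the others.

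Fold changes of the early lines against parental cells had opposite signs and differed by edgeR's test of FGF2 early minus FL early in 2 of these genes. For MYC the log2 fold change between the lines was 0.21 (adjusted p = 0.0487). Against parental cells MYC gave 0.09 in FGF2 early and −0.12 in FL early, and neither passed edgeR's test (adjusted p = 0.352 and 0.229). For TMOD2 the log2 fold change between the lines was −2.79 (adjusted p = 0.00107), with −1.71 and 1.08 against parental cells, the latter not past the threshold (adjusted p = 0.057). Whether these 2 calls between the lines hold without single libraries was not checked.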

How the results depend on the processing

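With 1 library per acute state these counts carry no replicate error. Total-count scaling put the median of all genes at −0.12 with FGF2 and −0.06 with FL, and gave 137 higher and 324 lower genes with FGF2 and 79 higher and 110 lower with both ligands; the higher share of calls went from 51.4% to 29.7% with FGF2 and from 61.4% to 43.8% with FL. It kept 79 of the 119 higher and all 73 lower members. A pseudocount of 2 CPM gave 106 higher and 75 lower with FGF2, 107 and 61 with FL, and 51 and 30 with both; the pseudocount of 0.1 CPM gave 230 lower with FL. With no filter on low values there were 310 lower with FGF2, 245 with FL and 118 with both, and with a mean of at least 10 CPM 79 and 41 with FGF2, 79 and 33 with FL, and 47 and 16 with both. Scaling by relative log expression kept 116 and 73 members, and TMM over the acute libraries alone 107 and 73. Over scalings and pseudocounts, no named difference past 2-fold changed direction, and 508 of 610 alternative values of named genes lay within the counting interval.

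In the early comparisons, adding the acute libraries as a further group left 5 higher-set genes risen and 14 fallen in FGF2 early and 1 and 6 in FL early, and 5 lower-set genes risen in FL early. Members were chosen for differences within that added group, so a drop in their calls is partly built in. Leaving out 1 replicate gave 1544 to 2648 genes risen in FGF2 early, 945 to 1943 genes risen in FL early, 967 to 2024 genes fallen in FL early, 8 to 14 higher-set genes risen in FGF2 early, 3 to 12 higher-set genes risen in FL early, 13 to 24 higher-set genes fallen in FL early and 1 to 9 lower-set genes risen in FL early. The labels' replicate numbers did not pair the libraries (correlations of same-numbered libraries −0.0976 to 0.0727, 3 of 20 best with their own number). With a replicate block, 8 lower-set genes rose in FGF2 early instead of 4. The count over all genes in that fit is not given here, so this change is not read as particular to the members.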

Other observations

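Several members with the largest differences had no gene symbol. ENSG00000236575 stood at 0.0137, 15.8 and 14.4 CPM on drug alone and then with FGF2 and FL, and ENSG00000268139 at 0, 5.09 and 9.65 CPM. On the lower side ENSG00000269216 stood at 14.1, 1.43 and 0.467 CPM in the same order, and ENSG00000186076 at 3.27, 0 and 0 CPM.

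A receptor and secreted factors were among the less abundant members. FCMR, a receptor for IgM, stood at 1.04 CPM on drug alone, 6.4003 with FGF2 and 4.39 with FL. NPY, the neuropeptide Y gene, stood at 1.75 CPM on drug alone, 4.99 with FGF2 and 5.83 with FL. MDK, the growth factor midkine, stood at 2.38 CPM on drug alone, 6.52 with FGF2 and 6.36 with FL, and at 9.14, 8.23 and 9.703 CPM in parental cells. All 3 were higher with both ligands and were picked after their values were seen.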
